A study of Rattus norvegicus with 30 samples.

Results

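Repaired plantaris tendons were compared between 21 and 7 days after tenotomy in rats that received vehicle, with 5 tendons at each time. The tendons were chosen by the repair time and dose in their labels, and they make up 10 of the 30 tendons of the series. All rats were adult male Sprague Dawley rats. Both plantaris tendons of a rat were cut and sutured at once, the right tendon was used for RNA sequencing, and each library is the tendon of one rat. Rats of the 7D 0 mg/kg and 21D 0 mg/kg groups were given the cellulose and detergent vehicle by oral gavage until harvest, and these groups are called 7D and 21D below. For reference, 3 control tendons had no tenotomy. Further tendons came from rats given GSK2894631A, an inhibitor of hematopoietic prostaglandin D synthase (HPGDS), in doses of 2 mg/kg (4 tendons at 7 days, 5 at 21 days) and 6 mg/kg (3 at 7 days, 5 at 21 days). To keep muscle and bone out of the RNA, only the stretch of tendon between its 2 attachments was taken. It held every cell type of the healing tendon in one extract, so that fewer cells of a type and less RNA per cell cannot be told apart.

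A cut tendon first fills with a provisional matrix that holds many leukocytes and dividing fibroblasts. Neutrophils arrive early and macrophages and lymphocytes follow, while fibroblasts from the tendon and its sheath, some of which take on a contractile myofibroblast state with smooth muscle actin, lay down collagens. Over the following weeks the scar is remodelled, and cells of the tendon lineage, which carry the transcription factors scleraxis and mohawk and the membrane protein tenomodulin, produce the small proteoglycans and matricellular proteins of tendon.

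Each 7D library held 31527157 to 38449256 counts and each 21D library 27633858 to 46792121 counts over 13124 genes. Levels are given as counts per 1000000 (CPM) after TMM scaling, a correction for libraries in which a few genes take a large share, and 3 counts correspond to 0.0624 to 0.105 CPM in these 10 tendons. Markers of tendon were present at both times. Tenomodulin (Tnmd) was at 85.3 ± 42.7 CPM (SD, n = 5) at 7D and 176 ± 70.1 CPM (n = 5) at 21D, and scleraxis (Scx) was at 47.4 ± 30.4 and 31.8 ± 10.03 CPM. Mohawk (Mkx) was low, with 0.33 ± 0.183 and 1.06 ± 0.566 CPM against 5.69 ± 3.38 CPM (n = 3) in control tendons.

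The tendons also held unequal amounts of skeletal muscle RNA. Of a list of 43 sarcomere and other muscle genes 37 were analysed here, and they took 0.581, 1.40, 0.192, 1.08 and 0.238% of the counts in 7D replicates 1 to 5, and 6.07, 0.0730, 2.46, 2.87 and 8.68% in 21D replicates 1 to 5. Control tendons, at 21.2 to 29.7%, were far above both. Of the 21D tendons 4 were above every 7D tendon, and 21D replicate 2 was below all of them. None of the 37 was at 0 in all 10 tendons, and the most abundant of them, the skeletal actin gene Acta1, was at 188 to 2061 CPM at 7D and at 102 to 12632 CPM at 21D.

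21D replicate 2, which was singled out by its low muscle share, was more than 2-fold above or below all 4 other 21D tendons in 772 genes, or 6.15% of those tested, where each of the other 9 tendons stood apart from its group in 18 to 112 genes. Of the 772, 307 were above and 465 below, and without the genes of the skeletal muscle and muscle regeneration lists 726 of 12510 remained. Genes outside these lists that muscle also expresses were not taken out. Spp1, Slc2a1 and Olr1 are given as examples chosen after their values were seen. Osteopontin (Spp1), a secreted protein of activated macrophages, was at 196, 4457, 245, 737 and 997 CPM in 21D replicates 1 to 5, and the glucose transporter gene Slc2a1 at 18.1, 241, 17.47, 27.7 and 59.4 CPM. The scavenger receptor Olr1 was at 3.11, 116, 3.49, 6.75 and 28.4 CPM in the same order. In all 3 genes replicate 2 was the highest of the 21D tendons, whereas the 7D values of 3189, 603, 1403, 298 and 1652 CPM for Spp1 spread over a wide range of their own. Each count of called genes below, in total and per list, is also given without 21D replicate 2 where that moved it by more than 1.5 times. Counts of genes without overlap and of genes shared between doses were made with 21D replicate 2 included.

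**Figure D1:**
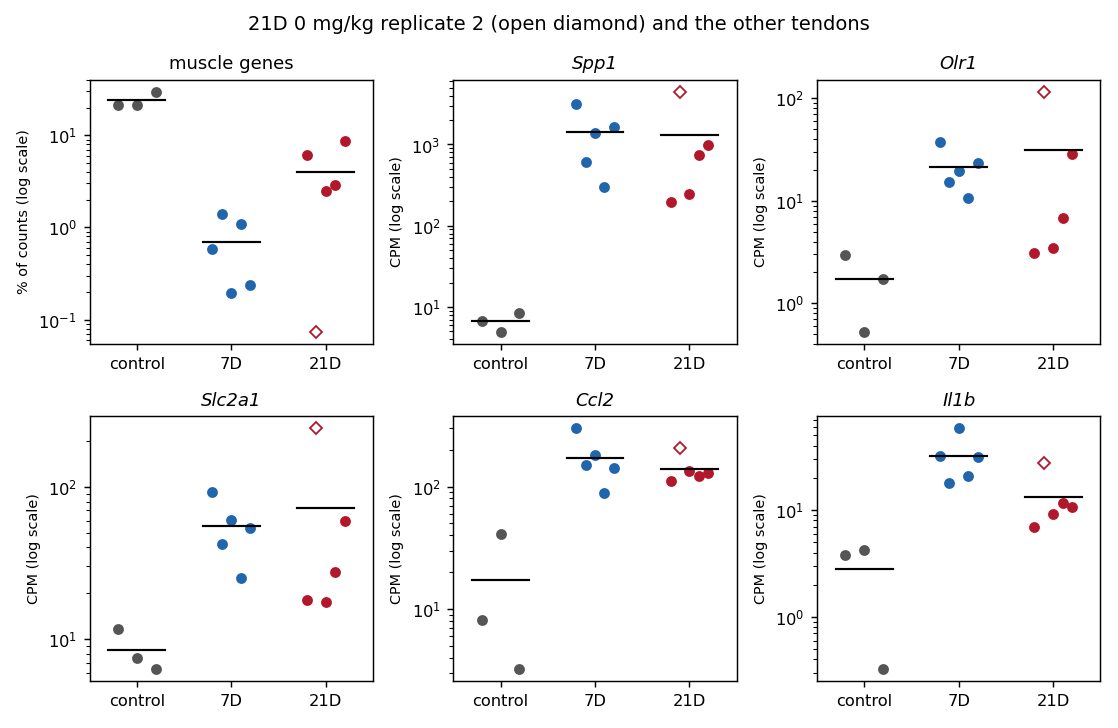
Skeletal muscle share of the counts in percent and levels of Spp1, Olr1, Slc2a1, Ccl2 and Il1b in CPM (log axes) in control (n = 3), 7D (n = 5) and 21D (n = 5) tendons at 0 mg/kg, with 1 point per tendon and a line at the group mean. The open diamond is 21D replicate 2, which was lowest of the 21D tendons in muscle share (0.0730%) and highest in the 5 genes.

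Genes that changed between 7 and 21 days were identified with the quasi-likelihood test of edgeR in one model over all 30 tendons, at a Benjamini-Hochberg adjusted p under 0.05. Of 12558 genes, 362 (2.88%) were higher and 310 (2.47%) were lower in 21D than in 7D tendons, together 672 or 5.35%. The 21D tendons had more RNA of the tendon-associated gene Tppp3, of the matrix proteins Mgp, Mamdc2, Smoc2 and Kera and of the secreted matricellular protein Nov. They had less RNA of the neutrophil-associated genes Lcn2, Slpi and S100a8, of complement C3, of the secreted WNT modulators Sfrp1 and Sfrp2, of the T cell marker Cd8a and the dendritic cell marker Clec9a, of the DNA replication genes Ccne1, Mcm2 and Rfc5 and of the contractile actins Acta2 and Actg2. Without 21D replicate 2, 851 genes (6.78%) were higher and 557 (4.44%) lower, and these included 637 of the 672. The median log2 fold change of all genes was 0.009, and 2981 genes had an unadjusted p under 0.05. With scaling by library size alone, where the median was -0.029, 224 genes were higher and 301 lower, so that 42.7% of the calls were rises against 53.9% with TMM. The tendons of the 2 groups did not overlap in 435 higher (3.46%) and 425 lower genes (3.38%), whether or not they passed the test.

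The count depended on single tendons. It was 203 genes without 7D replicate 3, 294 without 7D replicate 4 and 313 without 7D replicate 5, and 299, 370 and 271 genes without 21D replicates 1, 4 and 5, against 1408 without 21D replicate 2. Of the 672 genes, 173 (88 higher and 85 lower) were called in all 10 fits that left out 1 tendon. The skeletal muscle share moved with the time, and with that share as a covariate 158 genes were higher and 128 lower, which included 137 of the 362 higher and 116 of the 310 lower genes. The genes described below by their full values were chosen by rule from the 12558 and from 37 gene lists, and 83 of the 123 so named passed the threshold, 30 of them in every fit that left out 1 tendon. With the muscle share as a covariate 42 named genes kept their direction but lost the call, which by itself does not show a smaller fold change. Of those described below, these were Ucma, Kera, Anxa8, Cxcl6, S100a8, Scart1, Mb, Xirp2, Ckmt2, Ttk, Ccl6, Cxcl14, Stab1, Cd3g, Cd2, Fcrla, Xcr1, Mx1, Cd55, Cfp, Colgalt1, P3h1, Tnfaip6, Mepe, Frzb, Esm1, Selp, Bmp2, Bmp4, Inhbb, Fgf9, Igfbp4, Wif1, Wnt10b, Herpud1, Kdelr2, Sec61b, Bnip3, Mvd, Nr1d2 and Tef, with adjusted p from 0.0504 for Cxcl6 to 0.476 for Ckmt2.

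**Figure D2:**
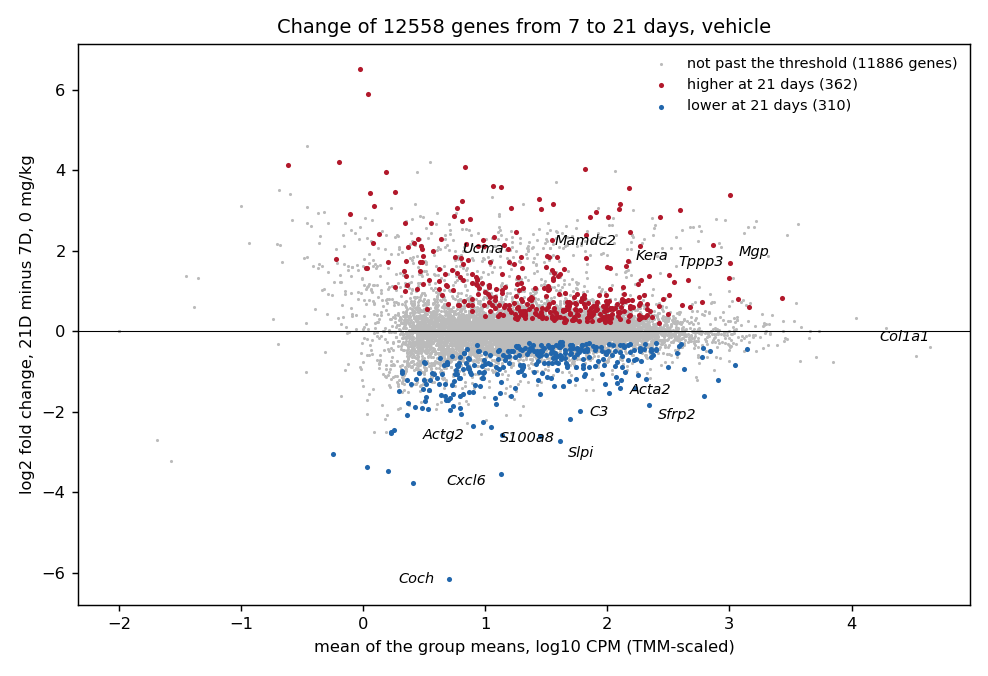
Log2 fold change from 7D to 21D (y axis, edgeR) against the mean of the 2 group means in log10 CPM (x axis) for 12558 genes at 0 mg/kg. The 362 higher genes are red, the 310 lower genes blue and the others grey, and the labelled genes lie between Coch at -6.16 and Mamdc2 at 1.88.

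Of the tendon lineage genes Tppp3 changed most clearly, with the smallest adjusted p among all 12558 genes. Tppp3 (ENSRNOG00000016890, chromosome 19) codes for a tubulin-binding protein that marks cells of the tendon sheath. It was at 190, 161, 131, 150 and 253 CPM in the 7D tendons and 488, 409, 506, 575 and 348 CPM in the 21D tendons, with each group's replicates in order from 1 to 5. All 21D tendons were above all 7D tendons, and control tendons were at 606 ± 66.6 CPM (n = 3). The rise was 2.63-fold (log2 fold change 1.40, SE 0.169, adjusted p = 0.000136 by edgeR). It was 1.44 without 21D replicate 2 and 1.39 with the muscle share as a covariate, on the log2 scale.

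Each count of a list below stands beside 2.88% higher and 2.47% lower among all genes. Counts given without 21D replicate 2 stand instead beside 6.78% higher and 4.44% lower, the shares among all genes in that fit. Of the 32 tested genes of tendon lineage and differentiated tendon, 4 rose and 1 fell, and the median log2 fold change was 0.30. When 21D replicate 2 was left out, 7 rose and 1 fell. Nov (ENSRNOG00000008697, chromosome 7), a member of the CCN family of matricellular proteins, was at 262, 222, 298, 325 and 223 CPM in the 7D tendons and 633, 450, 914, 680 and 542 CPM in the 21D tendons. The groups did not overlap, and 21D replicate 3 was the highest (log2 fold change 1.28, SE 0.263, adjusted p = 0.00787 from the same edgeR test). Kera (ENSRNOG00000004635, chromosome 7) codes for keratocan, a small leucine-rich proteoglycan of collagen fibrils, and was at 76.99, 63.2, 85.6, 71.2 and 51.8 CPM in the 7D tendons and 291, 111, 356, 139 and 179 CPM in the 21D tendons. The lowest 21D tendon, replicate 2, was still above the highest 7D tendon (log2 fold change 1.63, SE 0.413, adjusted p = 0.0238), although Kera lost its call without any 1 of 5 tendons, with an adjusted p of up to 0.0622.

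Coch was the list member that fell. It codes for cochlin, a secreted matrix protein, and was at 37.04, 1.1, 0.839, 1.86 and 9.21 CPM in the 7D tendons and 0.0956, 0.126, 0.125, 0.348 and 0 CPM in the 21D tendons. The 7D values were spread over more than an order of magnitude, with 7D replicate 1 far above the rest, and the 21D tendons had 0 to 10 counts. The log2 fold change was -6.16 (SE 1.38, adjusted p = 0.0124 from edgeR). The 3 classical tendon regulators and markers were not past the threshold. Scx had a log2 fold change of -0.58 with an adjusted p of 0.3, Tnmd of 1.05 with an adjusted p of 0.107 and Mkx of 1.68 with an adjusted p of 0.065, and Mkx passed it without 21D replicate 2 (1.94, adjusted p = 0.0202). The tendon matrix genes Thbs4, Fmod and Comp, added to the description after their values were seen, had log2 fold changes of 0.75, 0.50 and -0.56, with adjusted p of 0.141, 0.401 and 0.515.

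Matricellular and provisional matrix genes moved both ways. Of 34 tested, 2 rose and 5 fell, with a median log2 fold change of -0.14. The 2 that rose were Mgp and Smoc2. Mgp (ENSRNOG00000005695, chromosome 4), the matrix Gla protein that keeps soft tissue from mineralizing, was at 584, 467, 404, 449 and 462 CPM in the 7D tendons and 1327, 1125, 2354, 1324 and 1554 CPM in the 21D tendons. The groups did not overlap, and control tendons were at 646 ± 100 CPM, nearer to the 7D level (log2 fold change 1.70, SE 0.246, adjusted p = 0.000663 from edgeR). Smoc2 (ENSRNOG00000014166, chromosome 1), a calcium-binding secreted protein, was at 28.7, 48.1, 70.1, 66.2 and 34.1 CPM in the 7D tendons and 118, 83.9, 270, 122 and 150 CPM in the 21D tendons. It too did not overlap (log2 fold change 1.59, SE 0.35, adjusted p = 0.0116).

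The 5 that fell were Tnc, Tnn, Ptx3, Tnfaip6 and Emilin1. Tenascin-C (Tnc), which loosens cell adhesion in healing tissue, was at 572, 894, 1249, 1451 and 547 CPM in the 7D tendons and 208, 460, 410, 251 and 203 CPM in the 21D tendons. The highest 21D tendon was below the lowest 7D tendon (log2 fold change -1.62, SE 0.409, adjusted p = 0.0232 by edgeR). Tenascin-W (Tnn) fell from 1121 ± 443 to 480 ± 131 CPM (-1.22 with an adjusted p of 0.043), and it was at 0.979 ± 0.344 CPM in control tendons. Ptx3 and Tnfaip6, which together with hyaluronan stabilise the early matrix, were both lower. Ptx3 was at 44.53, 45.7, 42.3, 35.3 and 44.1 CPM in the 7D tendons and 10.3, 8.59, 18.1, 12.3 and 21.96 CPM in the 21D tendons, and Tnfaip6 was at 249, 227, 283, 179 and 269 CPM in the 7D tendons and 116, 107, 102, 133 and 109 CPM in the 21D tendons. Neither overlapped, with log2 fold changes of -1.57 with an adjusted p of 0.014 and -1.09 with an adjusted p of 0.0213. Emilin1, an elastic fibre glycoprotein, fell from 187 ± 52.98 to 92.51 ± 33.48 CPM (-1.01 with an adjusted p of 0.008). Tnc, Tnn and Tnfaip6 were lost without any 1 of 5, 7 and 2 tendons, with an adjusted p of up to 0.0732, 0.123 and 0.0652. With the muscle share as a covariate the log2 fold changes of Tnc, Tnn and Tnfaip6 were -1.54, -1.20 and -1.07, close to those without it, and none passed the threshold (adjusted p = 0.0513, 0.0854 and 0.0545), and in a fit of only the 7D and 21D tendons Tnn had an adjusted p of 0.0599. The abundant wound matrix genes Fn1 and Postn, added after their values were seen, had adjusted p of 0.619 and 0.259.

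Mamdc2 (ENSRNOG00000024620, chromosome 1), a secreted proteoglycan gene outside the lists, rose 3.69-fold. It was at 15.3, 11.8, 14.04, 14.99 and 12.1 CPM in the 7D tendons and 35.95, 70.6, 45.1, 59.46 and 41.1 CPM in the 21D tendons, and every 21D tendon was more than double the highest 7D tendon's 15.3 CPM (log2 fold change 1.88, SE 0.276, adjusted p = 0.000696). With the muscle share as a covariate the log2 fold change of Mamdc2 was 2.03 (adjusted p = 0.000291). Also outside the lists, Anxa8, a calcium-dependent membrane-binding protein, rose by 1.59 on the log2 scale (adjusted p = 0.0279), and Fam81a by 2.16 (adjusted p = 0.00127). Chodl, a membrane lectin gene, rose by 3.59 (adjusted p = 0.00125). It was at 2.47, 1.75, 2.49, 1.94 and 1.64 CPM in the 7D tendons and 61.1, 6.01, 13.1, 19.6 and 24.6 CPM in the 21D tendons, and 21D replicate 2 was the lowest of the 21D tendons.

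**Figure D3:**
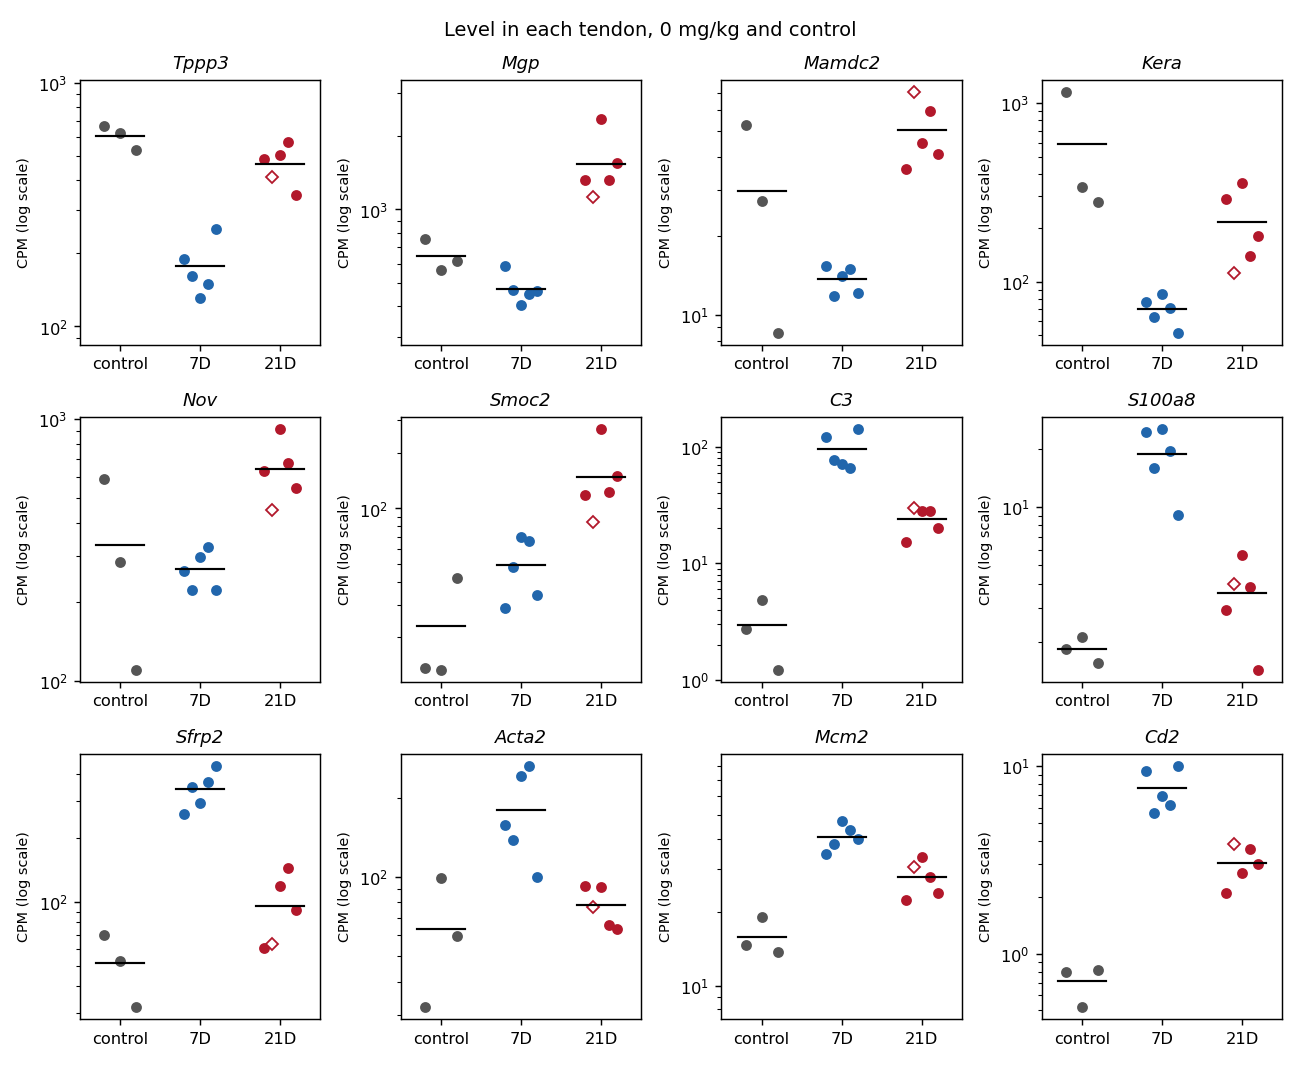
Level of 12 genes in CPM (log axes) in control (n = 3), 7D (n = 5) and 21D (n = 5) tendons at 0 mg/kg, 1 point per tendon, with a line at the group mean and an open diamond for 21D replicate 2. Tppp3, Mgp, Mamdc2, Kera, Nov and Smoc2 were higher in every 21D than in every 7D tendon, C3, S100a8, Sfrp2, Acta2, Mcm2 and Cd2 lower.

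Fibrillar collagen genes, which code for the bulk of the scar, did not pass the test. Of 14 fibrillar and fibril-associated collagen genes none rose or fell by edgeR, with 4 having an unadjusted p under 0.05 and 1 lower by DESeq2, with 4 log2 fold changes above 0 and 10 below, and 1 fell without 21D replicate 2. Type I collagen (Col1a1) was at 22763, 44860, 51616, 41538 and 41901 CPM in the 7D tendons and 19925, 25435, 37894, 28796 and 20389 CPM in the 21D tendons. The groups overlapped, with a log2 fold change of -0.61 (SE 0.278, adjusted p = 0.177). Type III collagen (Col3a1) was at 49571 ± 4588 and 38036 ± 8034 CPM (log2 fold change -0.38, adjusted p = 0.327), against 9067 ± 4850 CPM in control tendons. Among 18 network, beaded and transmembrane collagen genes 1 rose and 1 fell, beside 2.88% and 2.47% of all genes. These were Col13a1, which rose, and Col18a1, which fell, the first a collagen that spans the cell membrane and the second a basement membrane collagen. Col13a1 was at 2.25, 4.25, 2.46, 3.8 and 3.67 CPM in the 7D tendons and 12.7, 5.004, 29.9, 19.03 and 12.1 CPM in the 21D tendons (log2 fold change 2.26, SE 0.389, adjusted p = 0.00203). Col18a1 was at 441, 499, 792, 587 and 460 CPM in the 7D tendons and 332, 293, 351, 271 and 216 CPM in the 21D tendons (log2 fold change -0.93, SE 0.188, adjusted p = 0.00722). Neither overlapped.

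Genes for folding and crosslinking of collagen fell where they moved. Of 27 tested, 3 fell and none rose, and these 3 modify procollagen in the endoplasmic reticulum. P4hb, a subunit of prolyl 4-hydroxylase, was at 1549, 1552, 1752, 1603 and 1644 CPM in the 7D tendons and 933, 1445, 1295, 1165 and 1086 CPM in the 21D tendons, without overlap (log2 fold change -0.45, SE 0.108, adjusted p = 0.0181 from edgeR). P3h1 and Colgalt1 fell by 0.59 and 0.43 on the log2 scale (adjusted p = 0.0332 and 0.026). They were lost without any 1 of 6 and 5 tendons and P4hb without any 1 of 3, with adjusted p of up to 0.107, 0.0871 and 0.0609. The collagen chaperone Serpinh1, named after its value was seen, had an adjusted p of 0.0576 at -0.49. In the list of 36 genes for folding and secretion in the endoplasmic reticulum, Pdia6, Kdelr2 and Sec61b fell and Herpud1 rose, all by less than 1.5-fold, and Pdia6 was the firmest (log2 fold change -0.43, SE 0.0882, adjusted p = 0.00723).

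Of 32 matrix metalloproteinase and inhibitor genes tested, 3 rose and none fell, beside 2.88% and 2.47% of all genes. Mmp16, a membrane-anchored metalloproteinase, was at 3.98, 7.24, 11.8, 10 and 8.26 CPM in the 7D tendons and 24.7, 24.01, 30.9, 30.6 and 21.7 CPM in the 21D tendons. All 21D tendons were above all 7D tendons and above the control level of 6.03 ± 2.75 CPM (log2 fold change 1.68, SE 0.26, adjusted p = 0.00114 from edgeR). Adamts8 rose from 3.28 ± 1.35 to 14.2 ± 5.21 CPM and Timp3, an inhibitor bound to the matrix, from 96.9 ± 17.7 to 168 ± 60.4 CPM, with adjusted p of 0.0144 and 0.0302. Timp3 was not past the threshold without 21D replicate 2, its highest tendon (adjusted p = 0.0652), and without that tendon 2 genes of the list rose and 3 fell. Mmp14, a membrane-bound collagenase, was at 1110 ± 293 and 878 ± 234 CPM (adjusted p = 0.366). Mmp13 was at 19.6, 21.1, 110, 12.03 and 17.4 CPM at 7D, high only in replicate 3, and at 21.7 ± 5.98 CPM at 21D (adjusted p = 0.497).

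In the cartilage and bone list of 17 genes, Ucma and Mepe rose and Frzb fell. Ucma, a Gla protein of cartilage, was at 9.11, 5.32, 8.64, 4.58 and 8.76 CPM in the 7D tendons and 22.1, 9.82, 35, 23.9 and 29.4 CPM in the 21D tendons (adjusted p = 0.0479), and it lost its call without any 1 of 9 tendons. Mepe, a matrix phosphoglycoprotein of mineralized tissue, was at 0.192, 0.0274, 0.056, 0.609 and 0.0496 CPM in the 7D tendons and 9.53, 0.0315, 0.499, 3.37 and 0.946 CPM in the 21D tendons. Only 21D replicates 1 and 4 were above 1 CPM, and the groups overlapped (3.95 with an adjusted p of 0.0283).

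Neutrophil genes had the lowest median of the leukocyte lists. Of 11 tested neutrophil genes, 5 fell and none rose, and the median log2 fold change was -1.94. Lcn2 (ENSRNOG00000013973, chromosome 3), a siderophore-binding protein of neutrophil granules, was at 32.6, 18.2, 23.2, 13.1 and 30.3 CPM in the 7D tendons and 6.38, 3.34, 2.66, 3.97 and 3.43 CPM in the 21D tendons (log2 fold change -2.57, SE 0.47, adjusted p = 0.00334 by edgeR). Slpi, a leukocyte protease inhibitor, was at 47.7, 21.8, 148, 66.4 and 75.6 CPM in the 7D tendons and 10.2, 4.28, 12.7, 17.1 and 9.91 CPM in the 21D tendons. S100a8, a subunit of calprotectin, was at 24.4, 15.9, 25.3, 19.4 and 9.06 CPM in the 7D tendons and 2.94, 3.997, 5.64, 3.83 and 1.44 CPM in the 21D tendons. The groups did not overlap in any of the 3, and the control levels were 3.7 ± 2.23, 0.904 ± 0.577 and 1.84 ± 0.286 CPM. The log2 fold changes of Slpi and S100a8 were -2.73 with an adjusted p of 0.00778 and -2.39 with an adjusted p of 0.0156. Retnlg fell by 3.76 (adjusted p = 0.00207) and the receptor for granulocyte colony-stimulating factor, Csf3r, by 1.80 (adjusted p = 0.0405).

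Of 20 complement genes 2 fell, 1 rose and the others did not pass the threshold. C3 (ENSRNOG00000046834, chromosome 9), the central complement component, was at 122, 76.9, 71.51, 65.51 and 142 CPM in the 7D tendons and 15.1, 30.1, 27.9, 27.9 and 20.3 CPM in the 21D tendons. The highest 21D tendon was far below the lowest 7D tendon, and control tendons were at 2.94 ± 1.82 CPM (log2 fold change -1.98, SE 0.371, adjusted p = 0.00422 from edgeR). Properdin (Cfp, -0.79 with an adjusted p of 0.0214) also fell, and Cd55, which protects cells from complement, rose (1.38 with an adjusted p of 0.0281). The groups overlapped in Cd55 through 7D replicate 5. Haptoglobin (Hp), a hemoglobin-binding plasma protein, fell from 15.8 ± 6.18 to 3.29 ± 2.2 CPM (log2 fold change -2.26, SE 0.432, adjusted p = 0.00486), and the scavenger receptor gene Scart1 by 2.05 (adjusted p = 0.0265).

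Of 31 inflammatory cytokine and chemokine genes 4 fell and none rose, with a median log2 fold change of -0.87, and 8 fell without 21D replicate 2. Cxcl6, a chemokine that attracts neutrophils, was at 5.57, 15.1, 83.3, 8.61 and 10.4 CPM in the 7D tendons and 0.764, 5.38, 0.25, 1.53 and 2.73 CPM in the 21D tendons. No 21D tendon reached the lowest 7D tendon, but 7D replicate 3 was more than 5 times as high as the next, and without it Cxcl6 was not past the threshold (log2 fold change -3.54, SE 0.789, adjusted p = 0.0121, up to 0.0797 without 7D replicate 3). Ccl6, a chemokine of macrophages, was at 186, 126, 121, 131 and 185 CPM in the 7D tendons and 47.2, 91.48, 83.2, 116 and 70.8 CPM in the 21D tendons, without overlap (-0.87 with an adjusted p of 0.0348). Cxcl14 and Ccl7 fell by 1.18 and 1.54 (adjusted p = 0.0402 and 0.048), and Cxcl14 was not past the threshold without 21D replicate 2 (-1.07, adjusted p = 0.0541). Ccl2, which attracts monocytes, was at 171 ± 77.6 and 140 ± 37.7 CPM and Il1b at 31.9 ± 15.8 and 13.2 ± 8.23 CPM, with adjusted p of 0.716 and 0.0927. In Il1b 21D replicate 2 stood at 27.6 CPM among the 7D values and the other 4 tendons were at 6.90 to 11.6 CPM, below all 7D tendons, and without it the fall was past the threshold (-1.74, adjusted p = 0.0208).

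Macrophage genes showed little change that exceeded the spread between tendons. Of 14 resident macrophage genes, Stab1, a scavenger receptor, fell (-1.29 with an adjusted p of 0.0495), and without 21D replicate 2 none did (Stab1 adjusted p = 0.0669). Cd163, the hemoglobin scavenger receptor, was at 79.45, 62.1, 75.1, 124 and 218 CPM in the 7D tendons and 28.2, 26.9, 68.53, 57.4 and 22.03 CPM in the 21D tendons. The groups overlapped by 1 pair of tendons (log2 fold change -1.46, SE 0.457, adjusted p = 0.057 from edgeR), and the mannose receptor Mrc1 had an adjusted p of 0.108 at -0.95. Of 20 genes of lipid-handling macrophages, Cd9, a tetraspanin that other cells also carry, rose (0.73 with an adjusted p of 0.0281), and the list's median was -0.07. Without 21D replicate 2 that median was -0.44. Of 16 osteoclast and cell fusion genes none passed the threshold by edgeR or DESeq2, and none had an unadjusted p under 0.05, and the most abundant, the collagen-degrading cathepsin Ctsk, was at 676 ± 133 and 846 ± 351 CPM. The macrophage marker Cd68, named after its value was seen, was at 226, 108, 207, 119 and 255 CPM in the 7D tendons and 55.3, 390, 86.02, 161 and 166 CPM in the 21D tendons. 21D replicate 2 was above every other tendon in Cd68, and 21D replicates 1 and 3 were below every 7D tendon.

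Some lymphocyte and dendritic cell markers fell. All 15 tested genes of T and NK cells had a log2 fold change below 0, with a median of -1.18, and 4 fell past the threshold. Cd8a (ENSRNOG00000007178, chromosome 4), the co-receptor of cytotoxic T cells, was at 18.7, 10.03, 16.7, 14.96 and 31.1 CPM in the 7D tendons and 6.83, 6.2, 3.6, 7.41 and 4.87 CPM in the 21D tendons. Every 21D tendon was below every 7D tendon (log2 fold change -1.66, SE 0.281, adjusted p = 0.00182 from edgeR), and control tendons were at 1.42 ± 0.631 CPM. Cd3g, Cd2 and Il2rb fell by 1.24, 1.33 and 1.55 (adjusted p = 0.0349, 0.041 and 0.0448), and Cd3g and Cd2 lost their calls without any 1 of 7 and 8 tendons. The number was 6 without 21D replicate 2.

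Among 17 genes of MHC class II presentation and dendritic cells, Clec9a and Xcr1 fell, the receptors that mark the dendritic cells which cross-present antigen. Clec9a (ENSRNOG00000051690, chromosome 4) was at 10.7, 7.29, 14.3, 11.6 and 15.2 CPM in the 7D tendons and 4.28, 3.3, 3.89, 5.53 and 3.57 CPM in the 21D tendons, without overlap (log2 fold change -1.52, SE 0.231, adjusted p = 0.000964), and Xcr1 fell by 1.59 (adjusted p = 0.034). Of 12 B and plasma cell genes Fcrla fell (-1.45 with an adjusted p of 0.0457). Of 24 interferon response genes 23 had a log2 fold change below 0, but Mx1 alone passed the threshold (-2.60 with an adjusted p of 0.0371), and its 7D mean rested on replicate 3 at 166 CPM against 11.8 to 28.7 CPM in the other 4. Without 21D replicate 2, 5 of the 24 fell, and without 7D replicate 3 the adjusted p of Mx1 was 0.279. Of 11 mast cell genes none passed the threshold by edgeR or DESeq2, and none had an unadjusted p under 0.05, and the protease Cma1 was at 40.7 ± 21.3 and 21.1 ± 9.12 CPM (adjusted p = 0.387).

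**Figure D4:**
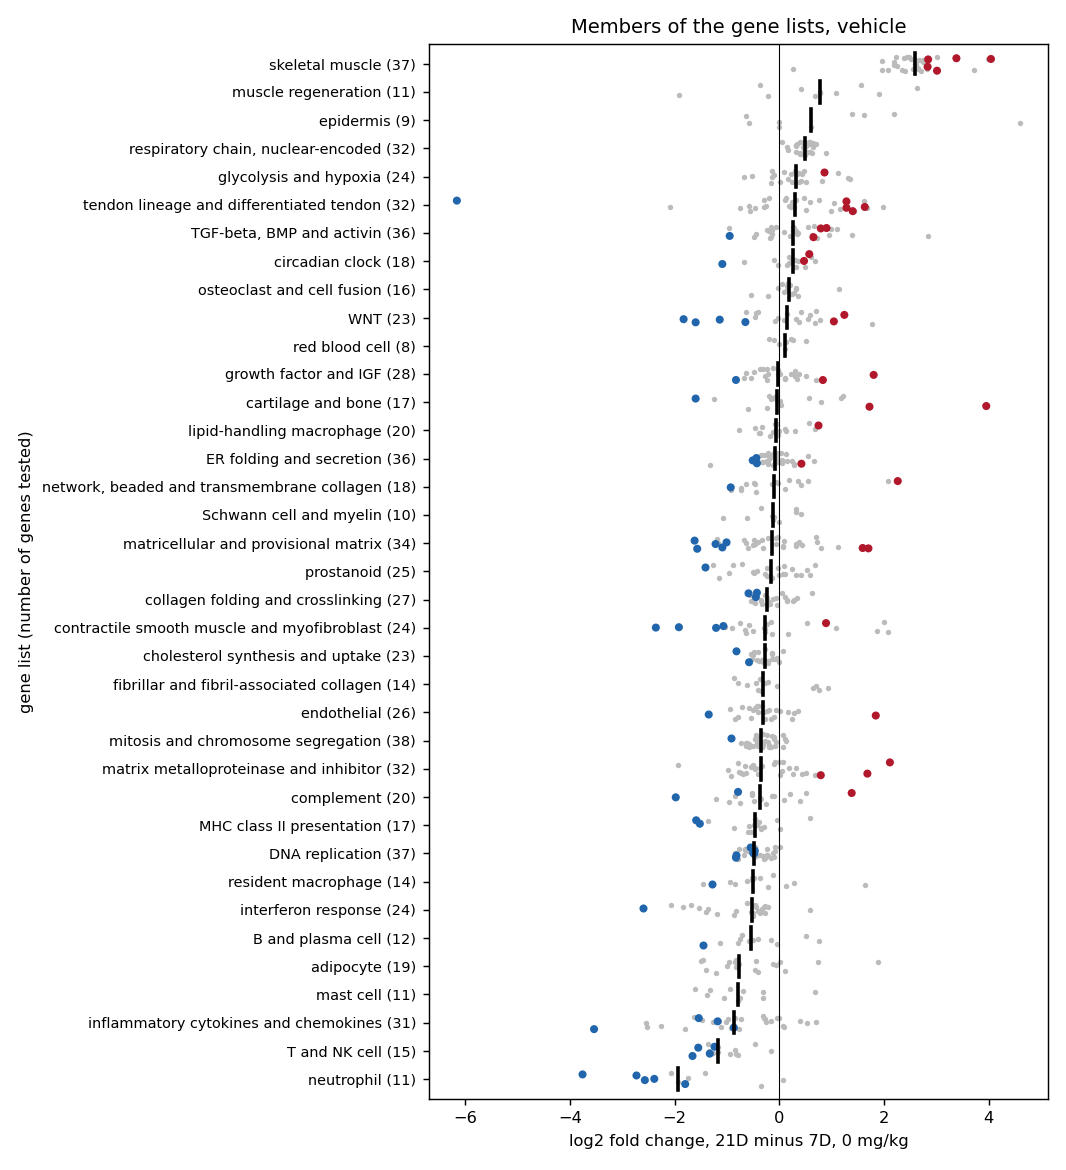
Log2 fold change from 7D to 21D at 0 mg/kg (x axis) of every tested member of the 37 gene lists (y axis, number tested in brackets), ordered by the list median, which is the black bar. Red and blue points passed the threshold as higher and lower, and medians run from -1.94 for neutrophil genes to 2.58 for skeletal muscle genes, beside 0.009 for all genes.

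Of 37 DNA replication genes tested, 36 had a log2 fold change below 0, the median was -0.48, and 6 fell past the threshold, namely Ccne1, Mcm2, Rfc5, Chaf1b, Fen1 and Mcm4. The fit without 21D replicate 2 called 16. Mcm2 (ENSRNOG00000016316, chromosome 4), a subunit of the replicative helicase, was at 34.6, 37.99, 47.4, 43.6 and 40 CPM in the 7D tendons and 22.4, 30.8, 33.8, 28.01 and 24.02 CPM in the 21D tendons. The highest 21D tendon, replicate 3, was just below the lowest 7D tendon (log2 fold change -0.55, SE 0.121, adjusted p = 0.0116 by edgeR), and control tendons were at 15.9 ± 2.9 CPM. Ccne1, the cyclin that starts DNA synthesis, was at 5.27, 5.32, 7.53, 6.46 and 4.69 CPM in the 7D tendons and 3.34, 4.5, 2.95, 2.99 and 2.63 CPM in the 21D tendons (log2 fold change -0.83, SE 0.18, adjusted p = 0.0105), and Rfc5, which loads the sliding clamp, at 25.4, 23.6, 22.9, 22.4 and 21.9 CPM in the 7D tendons and 17.7, 17.2, 16.03, 17.1 and 16.2 CPM in the 21D tendons (log2 fold change -0.47, SE 0.108, adjusted p = 0.0153). Both groups were tight in Rfc5, with all 21D tendons between 16.0 and 17.7 CPM. All 3 kept their calls in each of the 10 fits that left out 1 tendon.

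Of 38 tested genes of mitosis and chromosome segregation 1 fell, beside 2.47% of all genes. This was Ttk, a kinase of the spindle checkpoint (-0.93 with an adjusted p of 0.0282). The median was -0.35, and 3 genes fell without 21D replicate 2. Hmmr, a spindle-associated hyaluronan receptor, was at 8.97 ± 0.976 and 8.57 ± 2.22 CPM (log2 fold change -0.06, adjusted p = 0.919). The proliferation markers Mki67 and Top2a, named after their values were seen, had adjusted p of 0.868 and 0.423. Mki67 was at 29.7, 43.97, 41.1, 31.2 and 29.1 CPM in the 7D tendons and 18.7, 56.4, 37.4, 30.4 and 19.1 CPM in the 21D tendons, and the highest of all 10 tendons was 21D replicate 2.

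The promoters of these lists carry different short motifs, and they are shown because most members of each list had log2 fold changes of 1 sign. Windows from 250 bases before to 50 bases after the gene start were taken from RefSeq (GRCr8), and they were found for 32 of 37 replication genes, 32 of 38 mitosis genes and 23 of 31 cytokine genes. For the lists a gene was counted if any of its windows held the letters, whereas the share of all windows counts each window. The E2F letters TTTNGCGC, on either strand, stood in 14 of the 32 replication genes (43.8%) and in 1 of the 32 mitosis genes, against 1.28% of all 33469 windows. The cell cycle element CHR, TTTGAA on either strand, stood in 24 of the 32 mitosis genes (75.0%) and in 3 replication genes, against 18.3% of all windows. The NF-kappaB motif, likewise on either strand, stood in 6 of the 23 cytokine genes (26.1%) and in 1.53% of all windows. None of these motifs contains another, and a match is a description of the letters and not of bound protein. Of the 6 replication genes that fell, 5 had a window, and of these only Mcm2 held the E2F letters. The 100 bases before the start are given for Mcm2 (chr4:122918095-122918194, minus strand), for Fen1 (chr1:216274397-216274496, minus strand), which fell and has no match for the E2F letters, for Hmmr (chr10:25665216-25665315, minus strand) and for Cxcl6 (chr14:17596418-17596517, minus strand), with the matched letters in capitals.
Mcm2: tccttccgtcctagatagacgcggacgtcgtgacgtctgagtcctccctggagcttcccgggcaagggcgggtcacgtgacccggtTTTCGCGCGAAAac
Fen1: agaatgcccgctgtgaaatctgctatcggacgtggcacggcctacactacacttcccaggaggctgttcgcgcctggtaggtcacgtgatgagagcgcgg
Hmmr: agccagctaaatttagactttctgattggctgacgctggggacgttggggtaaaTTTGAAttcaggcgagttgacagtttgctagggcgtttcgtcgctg
Cxcl6: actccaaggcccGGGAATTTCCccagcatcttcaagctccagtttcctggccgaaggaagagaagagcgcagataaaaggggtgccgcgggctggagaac
In Mcm2 the match, which reads as the motif on both strands, starts 14 bases before the gene start, in Hmmr 46 bases and in Cxcl6 88 bases before it. Hmmr, with the CHR letters, had nearly equal mean CPM at both times, and Mcm2 and Cxcl6 fell by 0.55 and 3.54 on the log2 scale.

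Contractile genes of smooth muscle and myofibroblasts were lower at 21D in 4 of 24 tested, and 1 was higher. Smooth muscle actin (Acta2), the usual myofibroblast marker, was at 157, 138, 242, 263 and 99.9 CPM in the 7D tendons and 92.1, 76.8, 91.5, 65.6 and 63.3 CPM in the 21D tendons. The groups did not overlap, though 7D replicate 5 at 99.9 CPM was close to the highest 21D tendons (log2 fold change -1.21, SE 0.307, adjusted p = 0.024 from edgeR). The enteric smooth muscle actin Actg2 was at 13.7, 9.4, 16.51, 18.8 and 7.89 CPM in the 7D tendons and 2.29, 1.98, 3.79, 3.17 and 1.61 CPM in the 21D tendons (log2 fold change -2.36, SE 0.478, adjusted p = 0.00706) and calponin (Cnn1) at 6.01, 3.89, 6.77, 8.84 and 1.09 CPM in the 7D tendons and 1.72, 0.881, 1.29, 1.81 and 1.33 CPM in the 21D tendons (log2 fold change -1.92, SE 0.484, adjusted p = 0.0235). Cnn1 overlapped through 7D replicate 5 alone. Notch3, a pericyte receptor, fell by 1.07 (adjusted p = 0.0461). Cspg4, the NG2 proteoglycan of pericytes, rose from 44.8 ± 4.09 to 83.02 ± 26.3 CPM without overlap (adjusted p = 0.0213), and Mcam, another pericyte surface protein, had an adjusted p of 0.111 at -0.75. Acta2, Cnn1 and Cspg4 lost their calls without any 1 of 4, 3 and 3 tendons, with adjusted p of up to 0.0774, 0.068 and 0.0578, and 5 genes of the list were higher without 21D replicate 2. Of 26 endothelial genes 1 rose and 1 fell, beside 2.88% and 2.47% of all genes. P-selectin (Selp) fell (-1.35 with an adjusted p of 0.041) and Esm1 rose (1.84 with an adjusted p of 0.0352), the latter with overlap and at 77.3 ± 51.1 CPM in control tendons.

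Of 23 tested WNT genes, 4 fell and 2 rose. Sfrp2 (ENSRNOG00000009465, chromosome 2), a secreted frizzled-related protein, was at 259, 350, 294, 367 and 439 CPM in the 7D tendons and 60.3, 63.3, 119, 145 and 91.51 CPM in the 21D tendons. All 21D tendons were below all 7D tendons, and control tendons were at 51.4 ± 18.96 CPM (log2 fold change -1.83, SE 0.31, adjusted p = 0.00182 from edgeR). Sfrp1 was at 138, 173, 177, 145 and 181 CPM in the 7D tendons and 52.6, 91.99, 76.9, 73.4 and 75.4 CPM in the 21D tendons, also without overlap (log2 fold change -1.14, SE 0.212, adjusted p = 0.00417). Frzb, of the same family, fell by 1.60 (adjusted p = 0.0287) and the ligand Wnt5a by 0.65 (adjusted p = 0.0213), and both groups of tendons were apart in each. The ligand Wnt10b and the secreted inhibitor Wif1 rose by 1.24 and 1.04 (adjusted p = 0.0485 and 0.022). They were low, at 2.49 ± 1.09 and 2.7 ± 0.731 CPM at 7D (SD, n = 5), and lost their calls without any 1 of 8 and 5 tendons.

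Of 36 TGF-beta, BMP and activin genes 3 rose and 1 fell, and 7 rose without 21D replicate 2. Ltbp4, which binds latent TGF-beta to the matrix, was at 278, 289, 174, 187 and 183 CPM in the 7D tendons and 459, 333, 483, 483 and 313 CPM in the 21D tendons. It did not overlap (log2 fold change 0.90, SE 0.194, adjusted p = 0.0103 from edgeR). The ligands Bmp2 and Bmp4 rose by 0.65 and 0.79 (adjusted p = 0.03 and 0.035), and the activin subunit Inhbb fell by 0.95 (adjusted p = 0.0195). Tgfb1 was at 134 ± 25.6 and 119 ± 39.7 CPM (adjusted p = 0.71). Of 28 growth factor and IGF genes, the IGF-binding protein Igfbp5 rose and Igfbp4 fell. Igfbp5 was at 2224, 2513, 1644, 1795 and 1501 CPM in the 7D tendons and 3268, 2783, 4950, 3136 and 3078 CPM in the 21D tendons and Igfbp4 at 1319, 1716, 1311, 1240 and 1561 CPM in the 7D tendons and 753, 775, 1088, 487 and 908 CPM in the 21D tendons. Neither overlapped (0.83 with an adjusted p of 0.0198 and -0.83 with an adjusted p of 0.0448), while Igf1 itself had an adjusted p of 0.196 at -0.49. Fgf9 also rose (1.80 with an adjusted p of 0.0488), at levels of 0.26 and 0.908 CPM with overlap.

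Prostanoid genes were examined because the study's compound acts on that pathway. Of 25 tested 1 fell, beside 2.47% of all genes, and none rose. It was cyclooxygenase 2 (Ptgs2), the inducible enzyme. Ptgs2 was at 29.7, 23.1, 19.53, 36.99 and 17.8 CPM in the 7D tendons and 13.2, 11.3, 5.12, 3.93 and 14.01 CPM in the 21D tendons. The groups were apart (log2 fold change -1.42, SE 0.35, adjusted p = 0.0211 from edgeR), and the call was lost without any 1 of 2 tendons, with an adjusted p of up to 0.063. Ptgs1, the constitutive enzyme, was at 40.02 ± 12.6 and 43.3 ± 8.14 CPM (adjusted p = 0.837) and the PGE2 synthase Ptges at 27.6 ± 4.11 and 19.47 ± 4.51 CPM (adjusted p = 0.15). Hpgds was low at both times, at 2.003, 0.822, 1.04, 1.77 and 1.79 CPM at 7D and 1.98, 1.32, 2.27, 4.45 and 1.93 CPM at 21D, and its groups overlapped (log2 fold change 0.68, adjusted p = 0.372). In the fit without 21D replicate 2, 2 genes of the list fell.

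Skeletal muscle genes had the highest median of the lists. All 37 tested had a log2 fold change above 0, with a median of 2.58, but the tendons overlapped in every one and 5 rose past the threshold, beside 2.88% of all genes (Mb, Xirp2, Ckmt2, Nrap and Tnnc1). Myoglobin (Mb) was at 197, 413, 53.9, 171 and 49.8 CPM in the 7D tendons and 3083, 14.04, 1023, 1746 and 3348 CPM in the 21D tendons. In 21D replicates 1, 3, 4 and 5 it was above every 7D tendon, and 21D replicate 2 was the lowest of all 10 (log2 fold change 3.38, SE 0.924, adjusted p = 0.0332 from edgeR). Without 21D replicate 2, 35 of the 37 rose and the median was 2.90. Of 11 muscle regeneration genes none passed the threshold by edgeR, 4 had an unadjusted p under 0.05, DESeq2 called 1 lower, and 3 rose without 21D replicate 2. Embryonic myosin (Myh3) was at 18.7, 46.4, 2.35, 48.7 and 25.96 CPM in the 7D tendons and 372, 0.566, 44.48, 368 and 97.6 CPM in the 21D tendons (adjusted p = 0.0997). The muscle share moved with the rise of these genes, which themselves make up the share, and its part in the rise was not tested.

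All 32 nuclear-encoded respiratory chain genes had a log2 fold change above 0, with a median of 0.49. None passed the threshold by edgeR, 14 had an unadjusted p under 0.05, and DESeq2 called 1. Atp5f1b, an ATP synthase subunit, was at 832, 782, 782, 747 and 732 CPM in the 7D tendons and 1382, 823, 940, 1019 and 1848 CPM in the 21D tendons, highest in the 2 tendons with the highest muscle share (adjusted p = 0.125, and 0.24 on the log2 scale with the share as a covariate). Of 24 genes of glycolysis and hypoxia, the mitophagy receptor Bnip3 rose (0.86 with an adjusted p of 0.0213), and 3 rose and 1 fell without 21D replicate 2. Of 23 cholesterol genes 22 had a log2 fold change below 0, and 2 fell, among them Mvd, an enzyme of synthesis (-0.58 with an adjusted p of 0.0302). The fit without 21D replicate 2 had 5 of the 23 lower. Of 18 circadian clock genes Nr1d2 and Tef rose (0.47 with an adjusted p of 0.0245 and 0.57 with an adjusted p of 0.0479) and the repressor Nfil3 fell (-1.09 with an adjusted p of 0.0197), each with overlapping groups.

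Markers of other tissues that the cut could have taken along did not pass the threshold by edgeR. These were lists of 19 adipocyte, 10 Schwann cell and myelin, 8 red blood cell and 9 epidermis genes, with median log2 fold changes of -0.78, -0.12, 0.11 and 0.61, of which 6, 2, 0 and 0 genes had an unadjusted p under 0.05 and DESeq2 called 1, 1, 0 and 0. The adipocyte gene Cfd was at 761 ± 197 and 329 ± 155 CPM (adjusted p = 0.0728), the myelin gene Pmp22 at 331 ± 50.8 and 444 ± 69.1 CPM (adjusted p = 0.167) and the keratin Krt10 at 8.71 ± 1.29 and 8.69 ± 1.64 CPM (adjusted p = 0.999). Beta globin (Hbb) was at 7297, 8955, 646, 663 and 9463 CPM at 7D, with 7D replicates 3 and 4 far below the other 3, and at 5417 ± 2502 CPM at 21D.

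The same interval can be read in tendons of other rats, those given GSK2894631A, which share no tendon with the vehicle comparison. At 2 mg/kg, 890 genes (7.09%) were higher and 751 (5.98%) lower at 21 than at 7 days, together 1641 (13.1%). At 6 mg/kg 1072 (8.54%) were higher and 571 (4.55%) lower, together 1643 (13.1%). Of the 672 genes of the vehicle comparison, 313 passed at 2 mg/kg in the same direction, which is 46.6% of the vehicle genes and 19.1% of those at 2 mg/kg. At 6 mg/kg 454 did, which is 67.6% of the vehicle genes and 27.6% of those at 6 mg/kg. The sign of the fold change was shared by 94.9% of the 672 genes at 2 mg/kg and by 99.3% at 6 mg/kg, against 69.2% and 78.2% of all genes. In all 3 doses 159 genes rose and 100 fell.

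Several of the genes described above changed at each dose. Tppp3 had log2 fold changes of 1.40, 1.19 and 1.80 at 0, 2 and 6 mg/kg, Mgp of 1.70, 1.5 and 1.74, and Mmp16 of 1.68, 2.01 and 2.25. Lcn2 had -2.57, -3.15 and -2.97, C3 had -1.98, -1.82 and -2.34, and Sfrp2 had -1.83, -1.70 and -1.99. All of these passed the threshold at each dose (adjusted p of up to 0.00422 from edgeR). Acta2, Actg2 and Cnn1 passed it at 0 mg/kg and not at the other doses. Their log2 fold changes were -0.26, -1.10 and -0.26 at 2 mg/kg, whereas 6 mg/kg gave -0.89, -0.97 and -1.03, and the difference from 0 mg/kg had adjusted p of 0.482, 0.556 and 0.424 for the lower dose and of 0.9997 for each at 6 mg/kg.

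**Figure D5:**
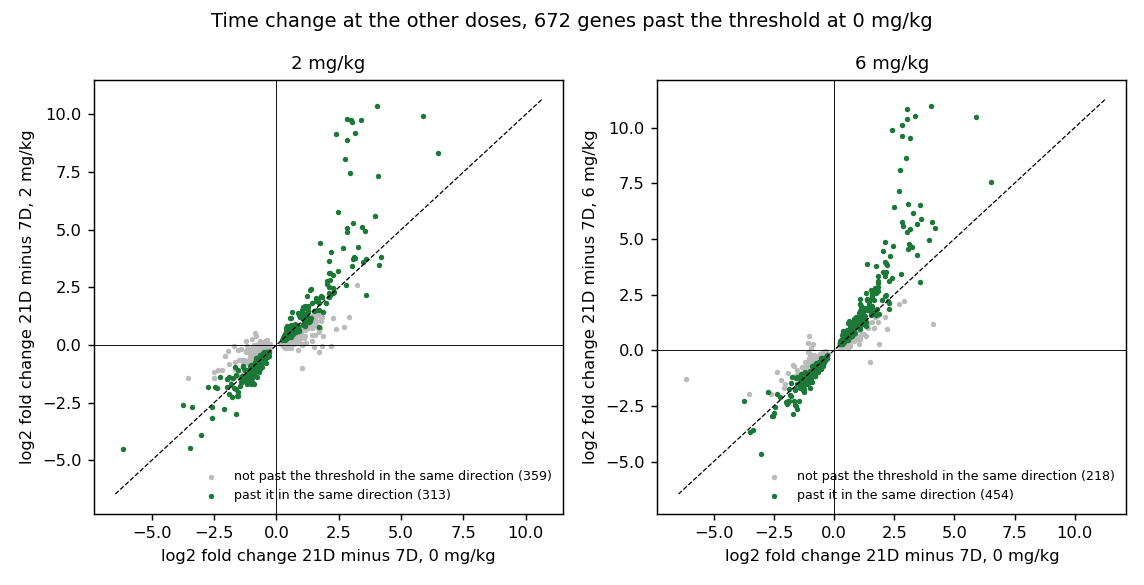
Log2 fold change from 7D to 21D at 2 mg/kg (left) and 6 mg/kg (right) against that at 0 mg/kg, for the 672 genes past the threshold at 0 mg/kg, with the line of equality dashed. Green points (313 and 454 genes) passed the threshold in the same direction at the other dose, and the others are grey. Mb and Xirp2, of skeletal muscle, lie far above the line at both doses.

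Whether the change itself differed between doses was tested as an interaction. Between 2 mg/kg and vehicle, 28 genes (0.223%) differed by edgeR, 23 (0.183%) with a larger and 5 (0.0398%) with a smaller log2 fold change at 2 mg/kg, and 16 of the 28 were on the skeletal muscle list. Between 6 mg/kg and vehicle 30 genes (0.239%) differed, all with a larger log2 fold change at 6 mg/kg, and 20 were on that list. Both tests used the same vehicle tendons, and without 21D replicate 2 the counts were 49 and 59. In 7 of 19 fits without 1 tendon at 2 mg/kg and 11 of 18 at 6 mg/kg, no gene passed. The muscle genes were at 0.0105 to 0.0136% of the counts in the 7D tendons at 2 and 6 mg/kg, below every 7D vehicle tendon. With the skeletal muscle and muscle regeneration genes left out before scaling, 0 of 12510 genes passed in either test by edgeR. Of these, 1225 genes at 2 mg/kg and 383 at 6 mg/kg had an unadjusted p under 0.05. With the muscle genes included, 1253 and 437 of 12558 genes did. DESeq2, with the muscle genes included, called 226 and 139 genes. With the muscle share as a covariate most calls went the other way, with 328 genes of larger and 805 of smaller log2 fold change at 2 mg/kg, whereas 6 mg/kg had 12 of larger and 132 of smaller change. Outside muscle, Wif1 rose at 0 mg/kg (1.04) and fell at 2 mg/kg (-1.01, adjusted p = 0.0149), a difference of -2.04 (adjusted p = 0.0269). That difference was not past the threshold with the muscle genes left out before scaling (adjusted p = 0.0557) or in 8 of the 19 fits without 1 tendon.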

How the data were processed

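Gene counts of 30 plantaris tendons, each from one rat, were used, and 10 of them form the comparison of 21D with 7D at 0 mg/kg. Per the study's methods the authors used fastp to trim 50-base single-end reads and STAR to map them on the rat genome build rn6, and made the deposited counts over exons of Ensembl genes, and they removed 4 further samples on quality. One more tendon of the 7D 6 mg/kg group, which has 3 in the labels, was not analysed here. The authors' table of fold changes and p-values was used only for chromosomes. Groups follow the repair time and dose that the labels give, and no column was left unmatched. Genes whose mean reached 3 CPM in any of the 7 groups were kept (12558 of 13124). After TMM scaling, edgeR 4.0.16 (R 4.3.3) fitted a mean per group over all 30 tendons, and the quasi-likelihood test with Benjamini-Hochberg adjustment was used at 0.05. Fold changes are therefore relative to the other genes of a library. The SE is the log2 fold change divided by the square root of F. In data simulated for the 21D against 7D comparison (12558 genes, 200 changed), 70 of 100 genes changed 2-fold and 98 of 100 changed 4-fold were recovered, with 5.08% false among 177 calls. DESeq2 recovered 76 and 99 in the same data, with 8.85% false among 192 calls. The simulated counts were drawn for each gene on its own. They hold no tendon that stands apart in many genes and no shared differences in muscle share. These rates therefore need not hold for the real tendons. DESeq2 1.42.0, limma 3.58.1, other scalings and filters, a replicate block, the muscle share as a covariate and leaving out each tendon were alternatives. Named genes were, in each direction, the 10 genes with a symbol of largest fold change past the threshold, without overlap, at a mean of at least 10 CPM and not on the muscle list. To these came up to 3 per direction and list past the threshold (else the 2 most abundant), 20 genes that the study measured by qPCR or drew by group, and the 5 of smallest p per interaction. Other called list members and the genes said to be named after their values were seen fall outside these rules, and so does Acta1. The comparison, lists and rules were chosen with earlier results of these data known, so the lists are described by counts and medians without a test. Promoters and their coordinates are from RefSeq (GRCr8) and were not used with rn6 coordinates. Some genes of the lists are not reported here.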

Additional observations from a re-analysis of the deposited data

Results flagged for a closer look

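In 10 of 114 gene and group combinations of 5 tendons, 1 tendon lay further from the rest than the 95% critical value of Dixon's test. For normally distributed values chance alone does so in about 1 in 20 groups, and CPM values need not be normally distributed. The 114 do not cover every gene described above. Mx1 at 7D, with 1 tendon far above the rest, is not among the 10. Of the 10, 4 are in Spp1, Olr1, Slc2a1 and Thbs4, genes chosen after their values were seen, so the number is not set against chance. 21D replicate 2 was the highest of its group in Ccl2 (206 CPM) and Il1b (27.6 CPM), and among the chosen genes in Spp1 (4460 CPM), Olr1 (116 CPM) and Slc2a1 (241 CPM). 7D replicate 1 was highest in Coch at 37.0 CPM and in Egr2, an early growth response transcription factor, at 48.0 CPM. 7D replicate 3 was highest in Cxcl6 at 83.3 CPM and in Mmp13 at 110 CPM. 21D replicate 3 was highest in Thbs4 at 2280 CPM.

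The change from 7 to 21 days differed between 2 mg/kg and vehicle in 28 genes and between 6 mg/kg and vehicle in 30 genes by the interaction test of edgeR. These counts were 0 with the muscle genes left out before scaling, 2 and 0 with the replicate block, and 0 in 7 of 19 and 11 of 18 fits without 1 tendon, among them the fits without any 1 of the 3 tendons of 7D at 6 mg/kg. At 2 mg/kg the difference in log2 fold change from vehicle was 8.83 for Igfn1, 7.77 for Myh4, 7.82 for Trdn and 2.87 for Zfp57, each larger at 2 mg/kg, and -2.04 for Wif1 (adjusted p = 0.0269 for each, and 0.0557 for Wif1 with the muscle genes left out). At 6 mg/kg it was 8.70 for Sln, 8.24 for Trdn, 7.47 for Csrp3, 8.24 for Myh4 and 8.14 for Ampd1 (adjusted p = 0.0331 for each). Igfn1, Myh4, Trdn, Sln, Csrp3 and Ampd1 are genes of skeletal muscle, and the muscle share of the 7D tendons was lower at 2 and 6 mg/kg than at 0 mg/kg.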

How the results depend on the processing

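The counts of 362 higher and 310 lower genes stayed within 1.5 times with size factors of the DESeq2 kind in edgeR, no filter or a stricter filter on low counts, the robust test and muscle genes left out before scaling. Other settings moved them. DESeq2 called 863 higher and 633 lower genes and the likelihood ratio test 586 higher. Library size alone gave 224 higher, limma-trend 234 higher, a fit of only these 10 tendons 236 higher, and a minimum of 1.5-fold 234 higher and 194 lower. The fit of only these 10 tendons called 333 of the 672 genes in the same direction, 162 of them higher and 171 lower. In that fit 30 of the named genes lost their call. The muscle share as a covariate left 158 and 128. With only these 10 tendons and 21D replicate 2 left out, an alternative chosen after seeing the data, 1244 were higher and 664 lower. Leaving out 1 tendon gave 97 to 851 higher and 106 to 557 lower genes.

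For the interactions, DESeq2 called 226 genes at 2 mg/kg and 139 at 6 mg/kg, the likelihood ratio test 175 and 131, limma-trend 44 and 8, and a fit of only the groups compared 17 and 0. The muscle share as a covariate gave 1133 (328 larger, 805 smaller than at 0 mg/kg) and 144 (12 larger, 132 smaller), and muscle genes left out, an alternative added after seeing the data, 0 and 0. Leaving out 1 tendon gave 0 to 72 and 0 to 69. The cause of these differences was not tested.

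The replicate numbers of the labels do not pair the tendons. The correlations of same-numbered tendons' deviations were 0.133, -0.539, 0.116, 0.158 and -0.391. With the replicate block in the fit of all tendons 346 genes were higher and 329 lower, and 2 and 0 genes passed the interaction tests. With only the groups compared and the replicate block, 0 were higher and 1 lower, and the interactions had 0 at 2 mg/kg and 1 at 6 mg/kg. Of the 672 genes called, 1 changed sign in an alternative, Csrp3, at -0.01 with the muscle share as a covariate. Changes of sign in genes that were not called are outside this count. For the 123 named genes over the fits that left out 1 tendon, the call was lost in 283 cases, gained in 9 and kept as it was in 938. Depth limits genes such as Coch and Mepe, where some tendons had few counts.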
